A study of Mus musculus with 16 samples.

Results

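In mouse liver, 216 of 7413 non-coding transcript features took either a high or a low level in each library, with a wide empty interval between the 2 levels. These on-off transcripts were chosen from their own values. A feature had to reach 1 FPKM (reads scaled by the length of the transcript and by the library's total) in at least 4 of 16 libraries. Its 16 values, each with 0.1 FPKM added, were sorted, and the highest ratio between successive values that left at least 2 libraries on each side had to be at least 8. That ratio is called the gap, and a library is called off for a transcript when it lies on the low side of the gap and on when it lies on the high side. Off therefore names the lower level and does not mean that no read was found. A pair of 3′ UTR features, in Mis12 and Agfg1, also passed and was left out by the rule. Group labels were not used in the choice, and the gaps and states themselves are a description. The rule favours spread within groups, which makes a call between groups less likely. A low share of calls among these transcripts is therefore not read as a result.

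The libraries came from livers of C57BL/6J mice, 1 liver each and 4 per group, all labelled with an age of postnatal day 21. One group had ordinary feed and another high-fat feed alone. The other 2 groups were also on high-fat feed and received resveratrol (100 mg/kg/day) or metformin (200 mg/kg/day) by gavage. They are called the resveratrol and the metformin group. Libraries are numbered 1 to 4 within a group in the order of the sample records, and the number pairs nothing. Resveratrol is a plant polyphenol and metformin is a drug that lowers blood glucose. Library totals lay between 17.2 and 31.1 M reads (M for mega). High-fat library 4 stood apart, with a median ratio to the average library of 0.691 against 0.885 to 1.145 in the other 15. Of 10 hepatocyte marker genes, 4 had tested features at their position, with summed levels of 50.1 to 114 FPKM per library. No tested feature lay at the marker genes of myeloid, stellate, endothelial, bile duct, pancreatic or erythroid cells. Coding genes themselves are not listed in the files, so these marker positions say little about the cell makeup. Fewer cells of a type and less RNA per cell cannot be told apart in whole liver.

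A messenger RNA carries after its coding part a 3′ untranslated region, the 3′ UTR, which ends where the transcript is cut and a poly(A) tail is added. The cut is placed a short distance after a signal hexamer, most often AATAAA or its variant ATTAAA. Many genes have more than 1 such site and so make messages with short or long 3′ UTRs, which differ in the binding sites they carry for microRNAs and proteins. Catalogues of long non-coding RNA such as NONCODE also hold unspliced entries that lie wholly within such 3′ UTRs. A read there is shared with the messenger RNA where the strand is not used, and the files do not give a strand. A gene symbol given with a transcript here names its position and not the level of that gene.

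As examples, the last 30 bases are given for 6 on-off transcripts in 3′ UTRs that end at an annotated transcript end. They were picked among transcripts with AATAAA or ATTAAA in these bases, so they do not show how often a hexamer is present. The bases were read from GENCODE M21 transcripts on the strand of the gene (GRCm38), with the last signal hexamer in capitals. The Irf2bp2 window also holds an ATTAAA and an AATAAA before it, in small letters. Cd47 codes for a surface protein that restrains phagocytes, Irf2bp2 for a transcriptional corepressor and Cpeb2 for a protein that binds 3′ UTRs. Gna13 codes for a G protein subunit, Ppp1r15b for a phosphatase subunit that acts on the translation factor eIF2α, and Atp2b1 for a plasma membrane calcium pump. The windows are chr16:49914979-49915008 (Cd47, plus strand), chr8:126588298-126588327 (Irf2bp2, minus strand), chr5:43289694-43289723 (Cpeb2, plus strand), chr11:109401339-109401368 (Gna13, plus strand), chr1:133139751-133139780 (Ppp1r15b, plus strand) and chr10:99026110-99026139 (Atp2b1, plus strand).
Cd47: attatatatacttAATAAAacattttaagc
Irf2bp2: cattaaataaaAATAAAattgggagcactg
Cpeb2: gactgactAATAAActattaagttattggc
Gna13: ttactgacatttAATAAAcatttataaatg
Ppp1r15b: taaattgtAATAAAtatatttgcaattatt
Atp2b1: catttAATAAAtatactgtttatctgtttc
In these 6 windows 11 to 19 bases follow the hexamer in capitals.

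Most on-off transcripts lay in 3′ UTRs of coding genes. Placed by interval against GENCODE M21, 134 of the 216 (62.0%) were single intervals with at least 50% of their length in a 3′ UTR, against 942 of all 7413 tested features (12.7%). Of the tested 3′ UTR features, 14.2% were on-off transcripts. Another 37 were spanning (17.1% against 15.2% of all tested), a word used for transcripts of several parts whose interval overlaps a coding gene, and 38 were intergenic (17.6% against 21.7%). Introns held 2 on-off transcripts (0.926%), although 38.1% of all tested features were intronic. None of the 720 partly exonic features was among them, and the remaining 5 were exonic outside the 3′ UTR definition. By catalogue, 202 were NONCODE transcripts, 10 carried IDs of assembled transcripts and 4 were Ensembl genes.

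**Figure D1:**
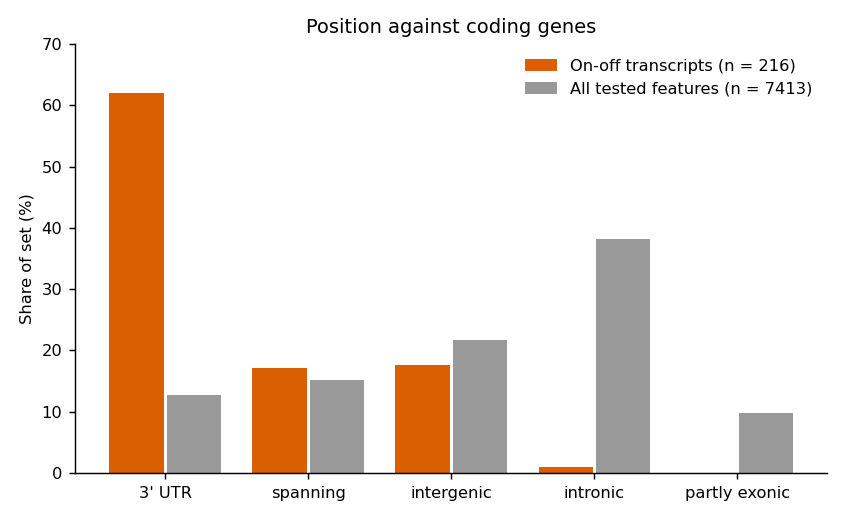
Share of features in each position class against coding genes (vertical axis, % of the set) for the 216 on-off transcripts and for all 7413 tested features. The 3′ UTR bar is 62.0% for on-off transcripts and 12.7% for all tested features, while introns hold 0.926% and 38.1%. The exonic features outside 3′ UTRs are not drawn.

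The gap was wide in most of them. It ran from 8.16 to 271.1 with a median of 15.1, while the median of the same ratio over all tested features was 1.19 and over the other 3′ UTR features 1.27. The number of off libraries was 2 for 47 of the transcripts, the lowest number the rule allows, and 12 for 17, the highest number found. Just inside the threshold were the transcripts at Ipo13 (NONMMUT048956.2, gap 8.16), Rapgef2 (NONMMUT113494.1, 8.19) and Akr1c19 (NONMMUT016236.2, 8.24). Just outside were those at Armc10 (NONMMUT051412.2, 7.95), Cep350 (NONMMUT003249.2, 7.87) and Gabpb1 (NONMMUT039655.2, 7.85).

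**Figure D2:**
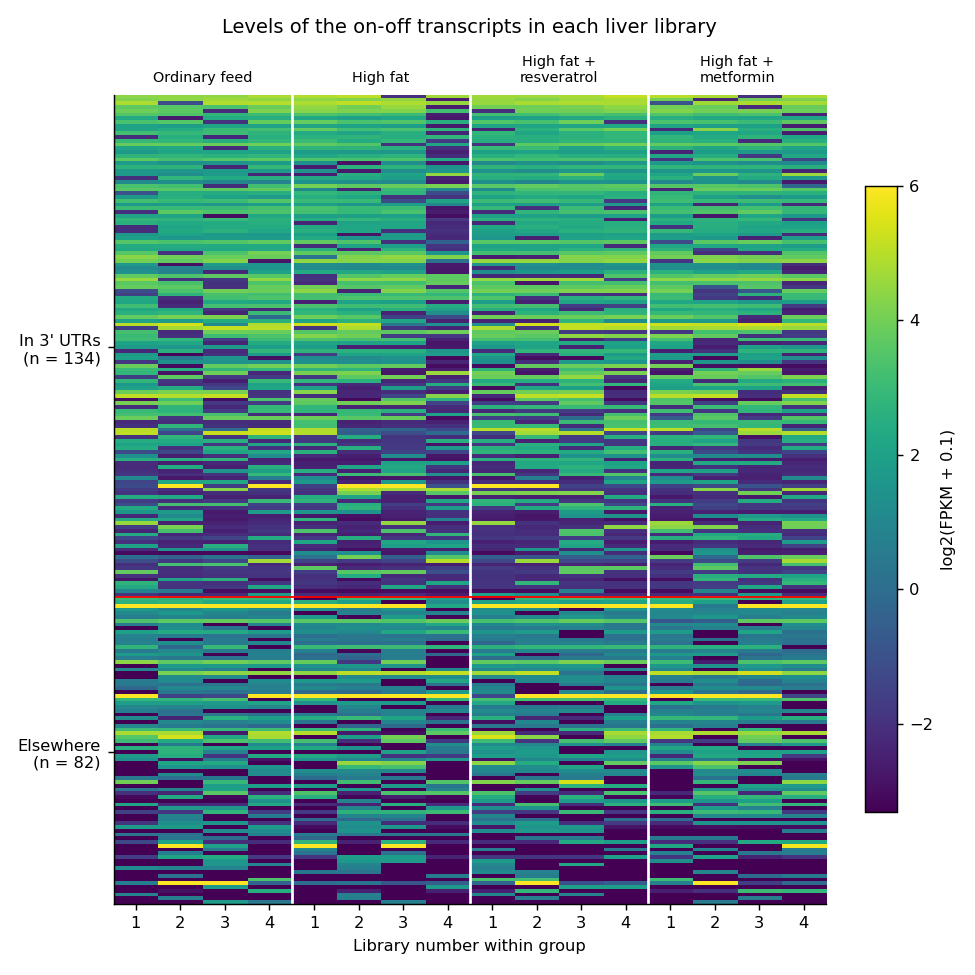
Levels of all 216 on-off transcripts (rows) in the 16 libraries (columns, 4 per group) as log2(FPKM + 0.1), with 134 in 3′ UTRs above the red line and 82 elsewhere under it. Light and dark cells alternate within every group, and the fourth high-fat library is dark in 130 of 216 rows, more than any other library.

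The transcript with the highest on level in a 3′ UTR was at Eif4ebp2 (NONMMUT005824.2, chromosome 10, 61428875 to 61432943), which codes for a repressor of translation initiation. In ordinary-feed libraries 1 to 4 it had 0.328, 62.4, 0.234 and 73.2 FPKM, and in high-fat libraries 0.239, 84.1, 77.5 and 0.426. With resveratrol it had 78.8, 78.3, 0.260 and 0.311 FPKM, and with metformin 0.261, 0.349, 0.426 and 0.243. It was thus on in 2 of 4 libraries in each of 3 groups and off in all 4 with metformin, with nothing between 0.426 and 62.4. The off libraries held 20 to 40 reads and the on libraries 5993 to 10651. A short feature towards the end of the same 3′ UTR (NONMMUT005823.2, 61428873 to 61429247), which overlaps it, had 0.635 to 2.49 FPKM in all 16 libraries and a gap of 1.21. Summed over both, on the length scale of the longer one, the gap was 96.4.

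At Cd47 (NONMMUT026869.2, chromosome 16, 49913193 to 49915008) each off library held exactly 1 read. The ordinary-feed libraries had 14.4, 0.0215, 13.5 and 16.6 FPKM and the high-fat libraries 15.9, 12.5, 13.6 and 0.0251. The resveratrol libraries had 0.0260, 13.6, 14.6 and 18.0 FPKM and the metformin libraries 16.5, 0.0313, 0.0239 and 0.0248. On levels varied little, from 12.5 to 18.0, and every group held libraries of both kinds.

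The 3′ UTR transcripts at Camk2n1 and Irf2bp2 were off in only 2 libraries each. At Camk2n1 (NONMMUT050210.2, chromosome 4, 138457015 to 138457623), which codes for an inhibitor of a calcium-dependent kinase, high-fat library 3 and metformin library 3 had 0.144 and 0.142 FPKM, 2 reads each. The other 14 libraries had 20.5 to 35.4 FPKM, with 215 to 636 reads. At Irf2bp2 (NONMMUT067774.2, chromosome 8, 126588298 to 126591090), high-fat library 4 and metformin library 2 had 0.0653 and 0.102 FPKM, while the other 14 had 15.7 to 27.5. The transcript at Lrrc58 (NONMMUT026527.2, chromosome 16, 37885942 to 37888788) was off in 5 libraries, with 0.0961 to 0.224 FPKM, and had 23.3 to 35.6 in the other 11. Its off libraries were ordinary feed 1, high fat 1, 3 and 4, and resveratrol 2.

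The 3′ UTR transcripts with the next highest on levels were at Gch1, Gsr and Ppp1r15b. Gch1 codes for the first enzyme of tetrahydrobiopterin synthesis, and its transcript (NONMMUT020634.2, chromosome 14, 47153895 to 47155783) had 29.4 to 44.9 FPKM in 12 libraries. Ordinary-feed library 3, high-fat libraries 3 and 4 and resveratrol library 1 had 2.12, 1.20, 2.53 and 2.55 FPKM, from 52 to 105 reads, so that its off level was the highest in reads among 3′ UTR on-off transcripts. Gsr codes for glutathione reductase, which renews reduced glutathione, and its transcript (NONMMUT065156.2, chromosome 8, 33697247 to 33698161) had 34.3, 30.5, 36.4 and 0.163 FPKM with ordinary feed and 0.145, 0.105, 0.287 and 19.8 on high-fat feed. With resveratrol it had 0.103, 33.5, 35.8 and 0.143, and with metformin 31.9, 35.5, 0.142 and 34.9. The transcript at Ppp1r15b (NONMMUT002633.2, chromosome 1, 133138053 to 133139780) was on in 8 libraries, with 29.3 to 36.5 FPKM, and off in 8, with 0.263 to 1.06. All 3 had both states in every group, except that Gch1 was on in all 4 metformin libraries.

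**Figure D3:**
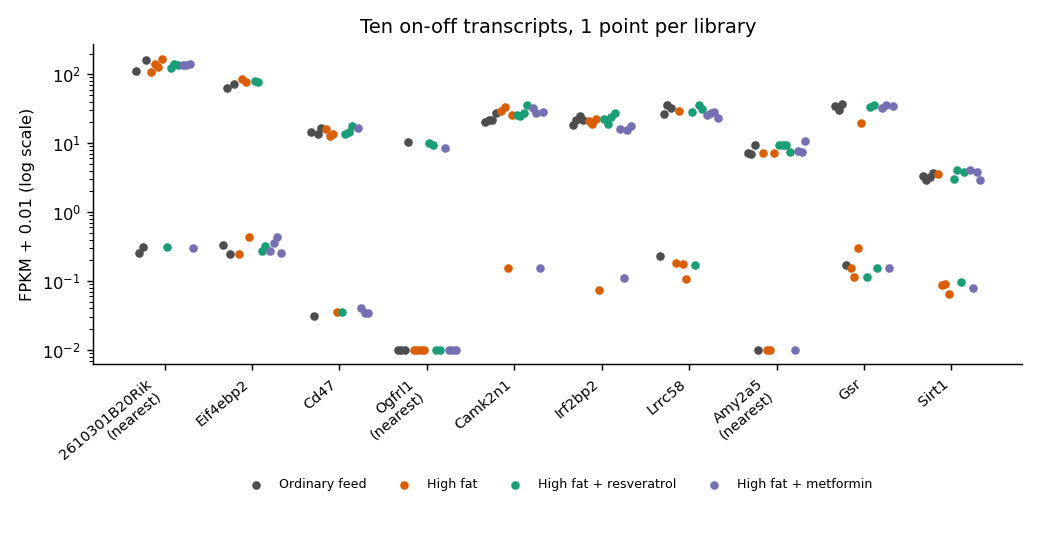
FPKM + 0.01 (log axis) of 10 on-off transcripts, with 1 point for each library, coloured by group. The names are those of the gene at the position or, where marked nearest, of the nearest coding gene. Each transcript forms a high and a low band with nothing between, for example 62.4 to 84.1 and 0.234 to 0.426 FPKM at Eif4ebp2, and colours mix within bands. Points at the lower edge are libraries at 0.

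Over all 134 on-off transcripts in 3′ UTRs, the off level was low but not 0. Every off library had at least 1 read for 134 of 134, and 806 of the 808 other 3′ UTR features (99.8%) also had reads in all 16 libraries. The median off level was 0.124 FPKM and the median on level 6.61, and the off level was 1.88% of the on level at the median. Highest off libraries held a median of 6 reads and lowest on libraries a median of 163. Among on libraries the highest value was 1.6 times the lowest at the median, so that the on levels of 1 transcript lay close together.

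The 82 on-off transcripts elsewhere differed in their off level. The highest off value was 0 for 59 of them (72.0%), and 17 (20.7%) had reads in all 16 libraries, against 6172 of 6389 (96.6%) of the features outside 3′ UTRs that were not on-off transcripts. Their median on level was 2.43 FPKM and the ratio of the highest to the lowest on value 2.1 at the median. Since the gap rule used these values, the shares are a description of the chosen transcripts and were not tested.

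The transcripts in 3′ UTRs differed from other 3′ UTR features little in length and base composition, and somewhat in where they end. Median length was 1781 bases against 1773, and the median share of G and C was 41.2% against 41.6%. Features under 1000 bases were on-off transcripts in 30 of 178 cases (16.9%), those of 1000 to 2000 bases in 50 of 374 (13.4%) and longer ones in 54 of 390 (13.8%). An end within 10 bases of an annotated transcript end was found for 85 of 134 on-off transcripts (63.4%) and for 401 of the 808 others (49.6%). The highest of the 16 values had a median of 8.22 FPKM against 4.77, a measure that the rule uses in part.

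Sequence could be read from GENCODE transcripts for 131 of the 134 (97.8%) and 731 of the 808 (90.5%). The hexamer AATAAA was searched in the last 40 bases on the strand of the gene and found in 87 of the 131 (66.4%), against 372 of the 731 (50.9%). AATAAA or ATTAAA was found in 97 (74.0%) against 479 (65.5%). Among transcripts that end at an annotated end the shares were 84.5% (71 of 84) and 86.9% (333 of 383). A match is a description of the letters and not of a site in use.

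For on-off transcripts in 3′ UTRs, other features of the same gene did not show such a gap. Another tested feature in the same coding gene was present for 58 of the 134 on-off transcripts in 3′ UTRs, 110 features in all, and none of the 110 had a gap of 8 or more. Of all tested features 2.91% were on-off transcripts, with 0.0709% of the intronic and 14.2% of the 3′ UTR ones. Only 17 of the 110 lay in 3′ UTRs, and the count of 0 was not tested against these shares. The median gap of these neighbours was 1.17, and 102 of them were under 2. Over all 216, 4 of 236 such neighbours had a gap of 8 or more, and these are pairs of on-off transcripts at Mpc1 and Gm15319, outside 3′ UTRs. The Mpc1 pair (NONMMUT028129.2 and NONMMUT028128.2, gaps 23.8 and 14.3) had the same state in 13 of 16 libraries. Another 3′ UTR feature of the same gene was tested for 16 of the transcripts, 17 features in all, with a median gap of 1.21 and 12 of them under 2.

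The neighbours named here were chosen after their values were seen. At Ptprb, which codes for a tyrosine phosphatase of blood vessel lining, the on-off transcript (NONMMUT007462.2, chromosome 10, 116387397 to 116389532) had 14.5, 0.164, 14.1 and 14.5 FPKM with ordinary feed and 14.9, 11.8, 14.3 and 0.0213 on high-fat feed. With resveratrol it had 0.243, 0.215, 0.877 and 14.4, and with metformin 0.577, 12.3, 0.203 and 10.9. The feature just before it in the same 3′ UTR (NONMMUT007461.2, 116384796 to 116387184) had 4.90 FPKM in high-fat library 4 and 8.78 to 14.4 in the other 15. At Chpt1, which codes for an enzyme of phosphatidylcholine synthesis, the on-off transcript (NONMMUT006741.2) was off in 9 libraries, with 0.0912 to 0.199 FPKM, and had 2.56 to 11.2 in 7. Its neighbour (NONMMUT006742.2, chromosome 10, 88473326 to 88474646) had 6.31 FPKM in high-fat library 4 and 18.0 to 33.8 in the other 15. In both genes 1 annotated stretch of 3′ UTR was read in every library while the other was on or off.

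Not every neighbour was even. The feature NONMMUT043457.2 at Ppm1l (chromosome 3, 69558433 to 69560799), which codes for a protein phosphatase, had a gap of 2.59 and values from 0.0679 to 2.52 FPKM. That at Mcmbp (NONMMUT063831.2, chromosome 7, 128695324 to 128697595), which codes for a protein that binds the replicative helicase, had a gap of 4.96, with 0.181 to 0.299 FPKM in 3 libraries and 1.88 to 2.91 in the other 13.

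Outside 3′ UTRs, the highest gap of all belonged to an intergenic transcript of 313 bases, 25.5 kb upstream of 2610301B20Rik (NONMMUT147944.1, chromosome 4, 10848699 to 10849011). It had 110.0, 0.249, 0.304 and 159 FPKM with ordinary feed, and 110, 139, 128 and 169 on high-fat feed. With resveratrol it had 0.302, 122, 139 and 136, and with metformin 136, 137, 140 and 0.287. The 4 off libraries held 2 reads each and the 12 on libraries 594 to 1352. No listed transcript overlapped it.

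Other high on levels outside 3′ UTRs were found near Hnrnpa3 and Rdm1 and at Scarna10. The intergenic transcript 16.3 kb upstream of Hnrnpa3 (NONMMUT107355.1, chromosome 2, 75637801 to 75642926) had 88.6 to 171 FPKM in 14 libraries, and 4.56 and 1.27 in high-fat library 4 and metformin library 2. That 5.5 kb downstream of Rdm1 (NONMMUT012087.2, chromosome 11, 101641602 to 101641976) was on in 4 libraries, ordinary feed 2 and 3, resveratrol 2 and metformin 2, with 98.1, 86.6, 125 and 97.7 FPKM, and had 0.231 to 1.59 in the other 12. Scarna10, a small RNA of the Cajal body at the position of Ncapd2 (chromosome 6, 125186359 to 125186683), had 72.0 and 3.96 FPKM in ordinary-feed libraries 2 and 3, 72.6 and 71.8 in high-fat libraries 1 and 3, and 4.71 and 58.2 in metformin libraries 1 and 4. It was listed at 0 in the other 10 libraries, including all 4 with resveratrol.

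An intergenic transcript 480 kb from the nearest coding gene, Amy2a5 (NONMMUT147815.1, chromosome 3, 112766517 to 112766990), was listed at 0 in 4 libraries and had 7.07 to 10.7 FPKM in 12. Its 4 libraries at 0 were ordinary feed 4, high fat 2 and 3, and metformin 1.

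Where transcripts overlap, reads can be assigned to 1 or another of them, so the values of overlapping listed transcripts were also summed. Of the 216, 92 had at least 1 overlapping listed transcript and 124 had none. A gap of at least 8 remained in the sum for 27 of the 92. In 3′ UTRs it remained for 22 of 36, with a median gap of the sum of 9.31. Elsewhere it remained for 5 of 56, with a median of 1.39, and 37 of these 56 sums had a gap under 2. The sum includes the partner's level, so an abundant partner lowers the gap by construction. Coding genes are not listed, so no sum includes the messenger RNA whose 3′ UTR holds the transcript. The counts in 3′ UTRs and elsewhere therefore depend on which transcripts are listed, and their difference was not tested.

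**Figure D4:**
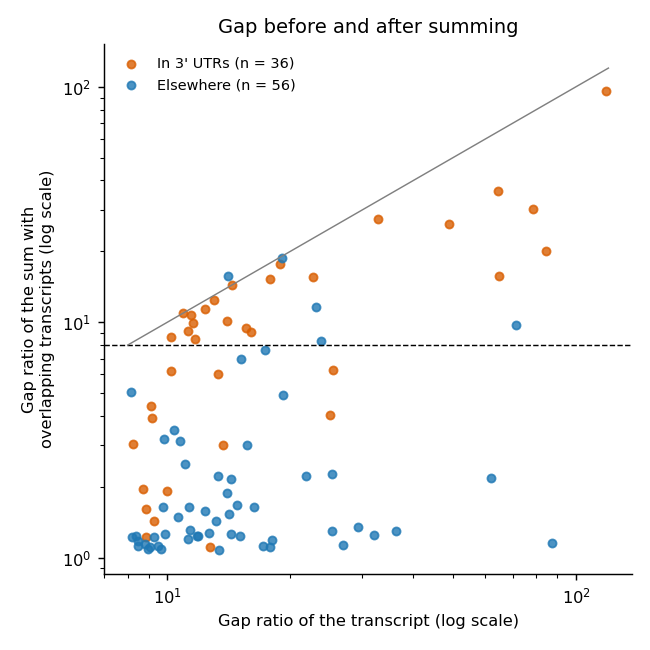
Gap of the on-off transcript alone (horizontal, log axis) and gap after summing all overlapping listed transcripts (vertical, log axis) for the 92 transcripts with an overlap. The dashed line marks a gap of 8 and the grey line equality. In 3′ UTRs 22 of 36 points lie on or above the dashed line and elsewhere 5 of 56. Messenger RNAs of coding genes are not listed and enter no sum.

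A gap lost in the sum is shown by an intergenic transcript of several parts 94.9 kb downstream of Ogfrl1 (NONMMUT138534.1, chromosome 1, 23256291 to 23271498). It had 10.3 FPKM in ordinary-feed library 4, 9.94 and 9.29 in resveratrol libraries 1 and 2 and 8.61 in metformin library 1, and was listed at 0 in the other 12. Of the 8 listed transcripts that overlap it, NONMMUT075139.1 (23267275 to 23270829) had 3.20, 2.18, 2.22 and 2.44 FPKM in those 4 libraries. This partner had 4.60 to 9.81 in the other 12 except high-fat library 4, with 1.84. The sum over the first transcript and all 8 that overlap it ran from 8.48 to 26.8 on the length scale of the first, with a gap of 1.15. It is thus not the sum of the 2 named transcripts alone.

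The gap was also lost at Wnk1, which codes for a kinase that regulates salt transport. The on-off transcript (NONMMUT058644.2, chromosome 6, 120033522 to 120036471) had 1.17, 1.08, 0 and 1.58 FPKM with ordinary feed and 1.30, 1.18, 1.25 and 1.33 on high-fat feed, and was listed at 0 in all 8 drug libraries. Its partner NONMMUT058645.2, which starts at the same base and ends at 120036490, was listed at 0 in the 7 libraries where the first was on. It had 0.846 FPKM in ordinary-feed library 3, 0.756, 0.778, 1.11 and 0.756 with resveratrol, and 1.23, 1.74, 0.635 and 0.819 with metformin. Summed, the position had 0.641 to 1.75 FPKM in all 16 libraries and a gap of 1.24.

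A pair of assembled transcripts that span Gm15319, named after its values were seen, took opposite states in all 16 libraries. They share most of their interval (MSTRG.40202.1, chromosome 8, 20134232 to 20567091, and MSTRG.40202.2, 20134324 to 20567191). The first had 1.71, 1.61, 1.88 and 1.72 FPKM in ordinary-feed library 1, high-fat library 2 and resveratrol libraries 1 and 3, and was listed at 0 in the other 12. The second had at most 0.0258 FPKM in those 4 and 1.09 to 2.22 in the 12. With all listed transcripts that overlap them, their sum had a gap of 1.13. The only other overlapping pair of on-off transcripts did not take opposite states throughout. It was NONMMUT029862.2 and NONMMUT029861.2, with Tbcc as the gene at or nearest their position. Their states were the same in 9 of 16 libraries, and both were off in 6.

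**Figure D5:**
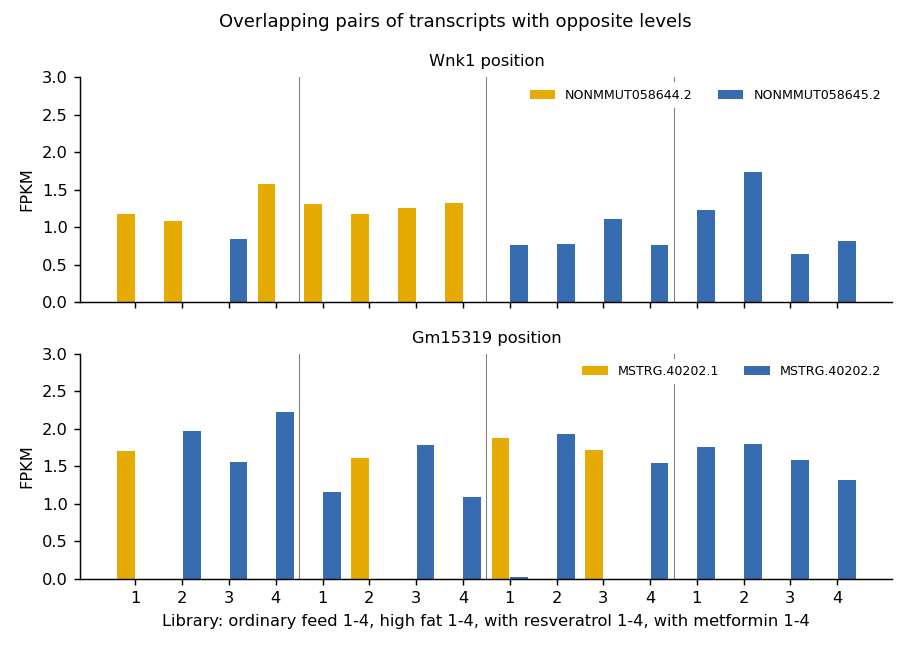
FPKM of the overlapping transcripts at Wnk1 and at Gm15319 in each library, as pairs of bars from 0. In every library 1 bar of a pair stands at 0.635 FPKM or above and the other at 0.0258 or under. At Wnk1 the change of bar falls between the 4 high-fat and the 8 drug libraries, with ordinary-feed library 3 like the latter.

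Over all 216, states were mostly particular to each transcript. There were 201 different patterns over the 16 libraries, and 192 transcripts had a pattern of their own. The other 24 shared 9 patterns, at most 4 to a pattern. Those at Irf2bp2, near Hnrnpa3, at Rapgef2 and near Ankrd42 (NONMMUT125596.1) were off in high-fat library 4 and metformin library 2 alone. Those at Atp2b1 (NONMMUT007064.2), Arl4a (NONMMUT014010.2), Eif4g3 (NONMMUT050200.2) and Zc3hav1 (NONMMUT056441.2) were off in high-fat library 4 and metformin library 4 alone. The first 4 lie on chromosomes 8, 2, 3 and 7 and the second 4 on 10, 12, 4 and 6, so none neighbours another.

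Transcripts of a pattern share their states by the way they were grouped, while their on levels differed. At Atp2b1 the 2 off libraries had 0.0555 and 0.0731 FPKM and the other 14 had 3.55 to 4.61. At Zc3hav1, which codes for an antiviral zinc finger protein, they had 0.0737 and 0.0969 against 6.75 to 11.2. At Eif4g3, which codes for a scaffold of translation initiation, they had 0.0589 and 0.0581 against 1.67 to 2.68, with 1 read in each off library.

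Another 3, at Cpeb2 (NONMMUT052100.2), Vkorc1l1 (NONMMUT054669.2) and Sppl2b (NONMMUT006441.2), were off in high-fat library 4 and metformin library 3 alone. At Cpeb2 these had 0.0637 and 0.121 FPKM against 9.91 to 23.5 in the others. The transcripts near Xbp1 (NONMMUT008416.2), at Zbtb20 (NONMMUT026663.2) and at Wwc2 (NONMMUT065550.2) were off in high-fat libraries 2 and 4 alone. At the other extreme, those at Gna13 (NONMMUT012522.2, chromosome 11, 109397995 to 109401368) and Zfp180 (NONMMUT060208.2) were on in the same 4 libraries, ordinary feed 2 and 3 and metformin 2 and 4. At Gna13 these had 9.18, 10.1, 8.80 and 9.12 FPKM against 0.0667 to 0.138 in the other 12.

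The number of on-off transcripts that were off was 65 to 85 in the ordinary-feed libraries, 70 to 79 with resveratrol and 75 to 91 with metformin. On high-fat feed it was 77, 69, 84 and 130, the last in high-fat library 4 (60.2%), which also had the lowest median ratio. The part of this library's lower scale in its off states was not tested. With that library, 58.3% of states were on in the high-fat group and without it 64.5%, against 64.8% with ordinary feed, 65.3% with resveratrol and 63.2% with metformin.

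The share of equal states had the same median within groups and between them. A pair of libraries had the same state for 44.0% to 66.2% of the 216 within groups (24 pairs, median 61.1%) and for 42.1% to 69.4% between groups (96 pairs, median 61.1%). Without high-fat library 4 the ranges were 52.8% to 66.2% within (21 pairs, median 61.1%) and 51.9% to 69.4% between (84 pairs, median 62.0%). These pairs share libraries and were not tested.

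Every one of the 216 was split within at least 1 group, and 206 within at least 2. The number of off libraries fixes part of this. With 4 libraries in a group, only transcripts off in 4, 8 or 12 libraries can go without such a split. Those off in 2 or 3 must be on in every group at least once. The counts given here are therefore a description. On states occurred in all 4 groups for 175 transcripts, off states in all 4 for 99, and both in every group for 60. For 2 transcripts all 4 libraries of 1 group were on and all 4 of another group off. One was the Wnk1 transcript, on in the high-fat group and off in both drug groups. The other, chosen after its values were seen, was at Rbbp9 (NONMMUT040260.2, chromosome 2, 144542266 to 144543778), which codes for a serine hydrolase. There the ordinary-feed libraries had 0.115, 0.129, 0.126 and 0.131 FPKM and the high-fat libraries 9.24, 0.0850, 0.116 and 0.0904. The resveratrol libraries had 7.72, 0.110, 8.13 and 9.32 and the metformin libraries 8.18, 7.31, 7.80 and 7.34, so that ordinary feed and metformin did not overlap. Its limma F test over the 4 groups had an adjusted p of 0.0615.

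Between high-fat and ordinary feed, the question was what the diet changed. Of the on-off transcripts, 1 of 216 (0.463%) was called by limma at an adjusted p under 0.05 on log2(FPKM + 1), against 14.6% of all tested features. An unadjusted p under 0.05 was found for 15 (6.94%), against 32.2% of all. These lower shares are partly built in, since the rule favours spread within groups. The share of all features called moved with single libraries, to 7.27% and 7.77% when ordinary-feed library 2 or 3 was left out, and to 9.74% and 8.16% when high-fat library 2 or 4 was left out. All 4 high-fat sample titles begin with the same prefix, whose meaning is not stated, so a source common to that group, such as a cage, cannot be told apart from the diet in any comparison with it. The transcript called was in the 3′ UTR of Wwc2 (chromosome 8, 47826172 to 47827874), which codes for a regulator of the Hippo growth pathway. It had 3.34, 2.66, 2.63 and 3.30 FPKM with ordinary feed and 2.46, 0.0378, 2.29 and 0.0535 on high-fat feed, and in the drug groups 2.00 to 3.10. Every high-fat value was below every ordinary-feed value (2.98 ± 0.390 against 1.21 ± 1.35 FPKM, SD, n = 4 each), with a log2 change of -1.08 (SE 0.33, limma adjusted p = 0.0420). The difference rests on high-fat libraries 2 and 4. Without library 2 it was -0.79 (limma adjusted p = 0.110) and without library 4 -0.80 (0.123), and the call was also lost under 14 other alternatives. Summed with the transcript that overlaps it (NONMMUT065547.2), the gap was 3.01. In this sum high-fat libraries 2 and 4 had 0.0755 and 0.642 FPKM, and the ordinary-feed libraries 2.74 to 3.40.

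For each drug against high-fat feed, no on-off transcript was called by limma. Of all tested features 0.0809% were called with resveratrol and 0.027% with metformin, and with 1 library left out these shares ran from 0.0135% to 0.769% and from 0.0135% to 0.121%. An unadjusted p under 0.05 was found for 13 of the 216 (6.02%) with resveratrol, against 16.2% of all tested features, and for 14 (6.48%) with metformin, against 7.47%. The Wnk1 transcript had the smallest adjusted p in both, with a log2 change of -1.18 (SE 0.22) for either drug, 1.27 ± 0.0648 FPKM on high-fat feed (SD, n = 4) and 0 in every drug library. Limma adjusted p was 0.0573 with resveratrol and 0.0767 with metformin. With the libraries rescaled by median ratio the change was -1.26 and passed in both (limma adjusted p = 0.0287 and 0.0329). Both also passed without ordinary-feed library 3 (limma adjusted p = 0.000306 and 0.000549), and the change with resveratrol passed without resveratrol library 4 (0.0483). Under the other 17 alternatives with resveratrol and 18 with metformin the change did not pass. Limma adjusted p there reached 0.168 without resveratrol library 2 for resveratrol. For metformin it reached 0.314 with 0.1 FPKM added before the log.

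Across the 4 groups at once, the limma F test called 1 of 216 (0.463%), against 3.13% of all tested features. At an unadjusted p under 0.05 there were 14 (6.48%), against 24.2% of all. The 3.13% rests on single libraries, and leaving out ordinary-feed library 2 or 3 gave 0.513% and 0.701%. It was 1.12% to 1.98% without ordinary-feed library 1, high-fat library 2 or 3, resveratrol library 1 or metformin library 4, and 4.8% without resveratrol library 4. The share of on-off transcripts called is therefore not set below it. The transcript called was again Wnk1 (limma adjusted p = 0.0177, and 0.0724 with 0.1 FPKM added before the log in place of 1). The value belongs to 1 of 2 transcripts that begin at the same base, and their sum overlapped between all pairs of groups except high fat (1.18 to 1.33 FPKM) and resveratrol (0.762 to 1.12).

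The transcripts varied within groups more than others did. The rule selects a wide spread over all 16 libraries without using the groups, so it favours spread within groups without requiring it. The median within-group SD on log2(FPKM + 1) was 1.096 for on-off transcripts, 0.242 for all tested features and 0.387 for the other 3′ UTR features. The median log2 change was -0.19 on high-fat against ordinary feed (-0.16 over all tested features), 0.23 for resveratrol against high fat (0.13) and 0.08 for metformin against high fat (0.07). The 3 comparisons share the high-fat libraries. The number whose values did not overlap was 13 of 216 between high-fat and ordinary feed (20.9% of all tested features), 12 between resveratrol and ordinary feed (9.93%) and 12 between metformin and ordinary feed (13.4%). It was 7 between resveratrol and high fat (7.93%), 6 between metformin and high fat (3.45%) and 9 between the drugs (4.76%).

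On-off transcripts were also counted at genes of the pathways that high-fat feed, resveratrol and metformin are known for. Of 127 tested features linked by position to the listed genes, 3 were on-off transcripts, and on-off transcripts make up 2.91% of all tested features. With lists this short, a count of 0 or 1 is near that share and sets no list apart. There were none among 25 features of lipid synthesis and storage, 8 of cholesterol metabolism, 11 of fatty acid oxidation, 21 of glucose and insulin, 17 of the clock, 3 of sex-specific transcripts and 4 of nuclear non-coding RNAs. Energy sensing and sirtuins had 1 of 12 (Sirt1), antioxidant genes 1 of 10 (Gsr) and genes of 3′ end processing 1 of 16 (Nudt21). None of these 3 was called by limma in any of the 3 comparisons.

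Sirt1 codes for a deacetylase that depends on NAD. Its 3′ UTR transcript (NONMMUT005901.2, chromosome 10, 63319059 to 63320690) had 3.30, 2.91, 3.18 and 3.68 FPKM with ordinary feed and 3.60, 0.0788, 0.0805 and 0.0559 on high-fat feed. With resveratrol it had 3.01, 4.07, 0.0883 and 3.75, and with metformin 4.12, 0.0695, 3.77 and 2.95. The high-fat group held 3 of the 5 off libraries, and the on value of high-fat library 1 lay among those of ordinary feed, so the groups overlapped (log2 change -1.47, SE 0.59, limma adjusted p = 0.10). Without that library, the only high-fat library that was on, the change was -1.99 (limma adjusted p = 0.0272). Under the other 19 alternatives it was not called. Limma adjusted p was 0.195, 0.186 and 0.218 without high-fat library 2, 3 or 4. Summed with the transcripts that overlap it, the gap was 9.13.

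Nudt21 codes for a subunit of the cleavage factor that helps to choose where a messenger RNA is cut. Its transcript (NONMMUT066749.2, chromosome 8, 93990799 to 94017814) is of several parts and was on in 6 libraries with 3.38 to 5.24 FPKM, namely ordinary feed 2 and 3, high fat 2 and 3, resveratrol 4 and metformin 2. The other 10 had 0.0837 to 0.224 FPKM, from 1 to 2 reads. Summed with its overlapping transcripts the gap was 3.13. All 4 groups thus held both states, and the position as a whole varied less than the transcript.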

How the data were processed

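The deposited values are FPKM, computed by the authors for 51024 listed transcripts with a file for each library. The submitters' processing notes name Bowtie 0.12.2, Cufflinks 2.1.1 and GRCm38. Annotation release and strand handling were not given in the sources used here. Each library's values, multiplied by length, came in whole steps worth 1 read for at least 99.9972% of transcripts (tolerance 0.05 of a read), which gave read counts and library totals.

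Ensembl transcripts were summed per GENCODE M21 gene, which left 49988 features, of which 7413 reached 1 FPKM in at least 4 libraries. Differences were tested with limma 3.58.1 (R 4.3.3, mean-variance trend) on log2(FPKM + 1) in a single fit over the 16 libraries (12 residual degrees of freedom) with Benjamini-Hochberg adjustment over all 7413. The fit was tested on simulated data. A fold change on this scale understates the change of low transcripts. The labels name no batch, cage or sex, and the title prefix shared by all high-fat samples is unexplained, so p-values measure the spread between these libraries.

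Members, gene lists and alternatives were chosen with earlier results of these data known. Transcripts named were those with the 8 highest gaps or on levels, those called, at listed genes, next to the threshold, or in the 5 largest shared patterns; others are said to be chosen after their values were seen. Positions use intervals alone.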

Additional observations from a re-analysis of the deposited data

Results flagged for a closer look

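Within groups of 4 libraries, 20 checks for a library far from the rest were made, of which chance gives about 1 in 20. They covered library measures and the levels of the Wnk1 and Wwc2 transcripts, and only library measures were flagged. High-fat library 2 had the highest total, 31.1 M reads (M for mega), against 21.9 to 22.9 M in the other 3 high-fat libraries. Metformin library 4 had 91 on-off transcripts off, against 75 to 77 in the other 3 metformin libraries. The values of the other on-off transcripts were not run through this check, since the rule selects transcripts with such gaps.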

How the results depend on the processing

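The number of on-off transcripts, 216, was 390 with 0.01 FPKM added before the ratio, 39 with 1 added, 434 with a gap of at least 4, 96 with a gap of at least 16 and 120 with at least 5 FPKM in 4 libraries. It was 207 to 225 with each library left out. Without high-fat library 4 it was 225, of which 191 were among the 216. The number in 3′ UTRs, 134, was 29 with 1 added, 244 with a gap of 4, 66 with a gap of 16 and 127 to 141 with each library left out. The number of these with reads in every off library took the same values. These 3′ UTR counts under alternatives, and the alternative with 1 library on a side (301 transcripts), were chosen after seeing the data. The F test called 0 with a pseudocount of 0.1, and 1 to 3 without 1 library. High fat against ordinary feed called 0 with a pseudocount of 0.1, 2 with median-ratio scaling, 0 with no filter and 0 to 3 without 1 library. The count was 0 without high-fat library 4. With median-ratio scaling each drug against high fat called 1, and without 1 library 0 to 1. Transcripts whose states follow a pair of groups, 2, numbered 2 to 7 with 1 library left out, 7 without high-fat library 1. The gap remained in the sum for 25 to 29 of those with an overlap when 1 library was left out. The causes were not tested.

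No paired analysis was possible because the labels name no replicates. The titles carry numbers whose meaning is not stated, and the numbers used here only name libraries. On levels near 1 FPKM rest on few reads, and without strand or coding genes in the files, reads of a 3′ UTR transcript and its gene cannot be told apart. No genome sequence of the build was used, so base composition is given for 3′ UTR features alone.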
